A study of Mus musculus with 4 samples.

Results

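The genes described here are 8 interferon-inducible GTPases, Igtp, Irgm1, Irgm2, Iigp1, Gbp2, Gbp3, Gbp6 and Gbp7, and the transcription factor Irf1. They were chosen by symbol, 9 of the 37305 rows of a table of transcript levels in mouse muscle, and the choice was made with the difference between the 2 groups of this study already known. Their levels are therefore described without p-values, and how many of them were called is given only beside the share over all rows. All 9 had a mean level of at least 1 FPKM over the 4 libraries, the minimum for the test across all genes, but Gbp6 reached it only through MCK-TD. FPKM is the number of sequenced fragments per kilobase of transcript, scaled to the mapped fragments of the library, so that levels can be set side by side between genes of different length.

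RNA from GTN muscle was sequenced in 2 libraries from MCK-TD mice (A and B) and 2 from Con-TD mice (F and G). Both groups are of strain C57BL/6 and were kept under conventional housing, and neither carries a treatment in the labels. The labels expand none of these abbreviations, name no altered gene, promoter or age, and do not say whether the libraries of a group are separate animals. The p-values given below for other genes thus rest on the spread among 4 libraries alone, part or all of which may be technical. A batch that the labels do not record and the genotype cannot be told apart.

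Interferons are cytokines that bind paired receptor subunits, activate JAK kinases and STAT factors, and switch on genes with STAT-binding (GAS) or IRF-binding (ISRE) elements. Among the strongest targets in mice are the immunity-related GTPases (IRG proteins) and the guanylate-binding proteins (GBPs), which gather on membranes that surround intracellular microbes. Irgm1, Irgm2 and Igtp, also called Irgm3, sit on the cell's own membranes and keep effector IRG proteins such as Iigp1 inactive there. Irf1 is itself induced by interferons and then drives many of these genes.

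The stretches upstream of 4 of the genes are shown. Igtp and Irgm2 are near-copies there, and Irgm1 and Gbp7 are not. The 4 were picked with their levels known, and whether these stretches bear on the levels was not tested. Each line gives the 250 bases before the annotated start, on the strand of the gene, from RefSeq on GRCm38.p6, a later build than that of the deposited values (mm9). Capitals mark letters that match GAS, searched as TTCNNNGAA, or ISRE, searched as GAAA, any 2 bases and GAAA again, on both strands, so that an ISRE match on the other strand reads TTTC, 2 bases, TTTC. The intervals are chr11:58199306-58199555 on the plus strand for Igtp, chr11:58214727-58214976 on the plus strand for Irgm2, chr11:48871421-48871670 on the minus strand for Irgm1 and chr3:142530086-142530335 on the plus strand for Gbp7.
Igtp: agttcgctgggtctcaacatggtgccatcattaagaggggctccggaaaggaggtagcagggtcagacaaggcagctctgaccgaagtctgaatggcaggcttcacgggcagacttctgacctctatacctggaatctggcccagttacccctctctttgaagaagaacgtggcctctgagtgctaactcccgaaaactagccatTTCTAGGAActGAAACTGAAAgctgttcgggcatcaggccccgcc
Irgm2: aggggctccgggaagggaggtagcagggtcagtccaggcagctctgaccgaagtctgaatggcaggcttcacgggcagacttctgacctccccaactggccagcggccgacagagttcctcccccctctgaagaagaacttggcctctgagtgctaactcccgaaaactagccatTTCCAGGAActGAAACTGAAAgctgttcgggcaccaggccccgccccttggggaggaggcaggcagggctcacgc
Irgm1: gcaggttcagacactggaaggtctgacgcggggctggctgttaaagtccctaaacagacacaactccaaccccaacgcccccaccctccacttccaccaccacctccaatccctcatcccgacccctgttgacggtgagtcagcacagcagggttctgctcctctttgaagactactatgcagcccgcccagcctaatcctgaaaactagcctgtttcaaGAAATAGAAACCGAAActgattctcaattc
Gbp7: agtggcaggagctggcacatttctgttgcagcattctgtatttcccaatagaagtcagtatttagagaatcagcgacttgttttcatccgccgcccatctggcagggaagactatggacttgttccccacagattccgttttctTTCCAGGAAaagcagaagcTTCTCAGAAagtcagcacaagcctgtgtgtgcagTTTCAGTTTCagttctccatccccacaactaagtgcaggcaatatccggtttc

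Igtp and Irgm2 each held a GAS match followed, 2 bases on, by an ISRE match. In Igtp the GAS match, TTCTAGGAA, lay 45 to 37 bases before the start and the ISRE match, GAAACTGAAA, 34 to 25 bases before it. In Irgm2 the GAS match, TTCCAGGAA, lay 75 to 67 bases before the start and the same ISRE letters 64 to 55 bases before it. The 2 stretches were identical at 194 of 215 aligned bases (90.2%), with a longest shared run of 55 bases. Irgm1 held 2 overlapping ISRE matches and no GAS match. Gbp7 held 2 GAS matches and an ISRE match on the other strand, further apart than in Igtp.

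Over the 32851 promoters of the RefSeq table, a GAS match was found in 7.02%, an ISRE match in 2.98% and both in 0.332%. The joint arrangement of Igtp and Irgm2, a GAS match, 2 bases and an ISRE match on 1 strand, written down after their promoters were seen, was found in 5 promoters, those of Igtp, Irgm2, Tgtp1, Tgtp2 and Gm12185, all 5 of IRG-family genes. The promoters of 7 of the 9 genes were searched, and those of Iigp1 and Gbp6 were not analysed here. Gbp2 held 1 ISRE match, Gbp3 2 overlapping ISRE matches at the first of its starts, and Irf1 1 GAS match at the first of its starts. A match is a string of letters and does not show that a factor binds it.

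Igtp, an endoplasmic reticulum IRG protein, had the highest level of the 9 genes in MCK-TD muscle. Its level was 37.7 and 57.2 FPKM in the MCK-TD libraries A and B, against 4.68 and 5.10 FPKM in the Con-TD libraries F and G. Both MCK-TD libraries lay far above both Con-TD libraries, and the spread within MCK-TD was wider than that within Con-TD. The mean was 47.4 ± 13.8 FPKM in MCK-TD and 4.89 ± 0.297 FPKM in Con-TD (SD, n = 2 each), a 9.70-fold difference. Between single libraries of the 2 groups the ratio ranged between 7.39 and 12.2. The difference in log2(FPKM + 1), MCK-TD minus Con-TD, was 3.01.

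Irgm2, the Golgi-associated regulator that follows Igtp on the chromosome, had 22.9 and 27.4 FPKM in MCK-TD and 3.29 and 4.49 FPKM in Con-TD. The groups were again far apart, with MCK-TD 6.46-fold higher in the mean and a log2 difference of 2.42. Gbp6, a guanylate-binding protein, had 7.46 and 7.34 FPKM in MCK-TD and 0.704 and 0.951 FPKM in Con-TD. The MCK-TD libraries nearly coincided and exceeded the Con-TD libraries 8.94-fold in the mean, with a log2 difference of 2.20. A log2 difference of 2 or more, reached by these 3 genes, was found for 323 of the 12474 rows with a mean of at least 1 FPKM (2.59%).

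Irgm1, a regulator found on lysosomes, the Golgi and mitochondria, had 8.71 and 8.34 FPKM in MCK-TD and 6.83 and 6.31 FPKM in Con-TD. The MCK-TD libraries were both higher, but by 1.30-fold in the mean, and the log2 difference of 0.33 was close to the median of 0.22 over all rows tested. Its log2 difference was 0.10 when libraries were scaled by the median of ratios and 0.02 after quantile normalization, so the size of its difference depended on the scale of the deposited values.

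Iigp1, an effector IRG protein that coats pathogen vacuoles, had 4.33 and 12.1 FPKM in MCK-TD and 4.75 and 2.24 FPKM in Con-TD. MCK-TD A lay between the Con-TD libraries, so the groups overlapped, and the high mean of MCK-TD (8.20 ± 5.48 FPKM, against 3.49 ± 1.78 FPKM in Con-TD; SD, n = 2 each) came from library B. The log2 difference was 0.95 with all libraries and 0.31 without MCK-TD B. Irf1 had 6.98 and 3.66 FPKM in MCK-TD and 4.02 and 2.40 FPKM in Con-TD. Here MCK-TD A was the highest library and MCK-TD B lay between the Con-TD libraries, so that these groups overlapped as well. The log2 difference of Irf1 was 0.56 with all libraries and 0.17 without MCK-TD A.

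Gbp2, Gbp3 and Gbp7 lie in 1 cluster of GBP genes, had low levels, and none of the 3 was higher in MCK-TD in the mean. Gbp7, which in mice acts in the assembly of the phagocyte oxidase, had 1.04 and 1.01 FPKM in MCK-TD and 3.52 and 2.73 FPKM in Con-TD. Both MCK-TD libraries were below both Con-TD libraries, and the mean was 3.04-fold lower, a log2 difference of -1.02. Gbp2, a GBP that targets bacterial and parasite vacuoles, had 1.10 and 1.82 FPKM in MCK-TD and 1.61 and 2.10 FPKM in Con-TD, and the groups overlapped. Gbp3 had 0.992 and 1.02 FPKM in MCK-TD and 1.06 and 1.31 FPKM in Con-TD, with MCK-TD just below Con-TD and a log2 difference of -0.12.

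**Figure D1:**
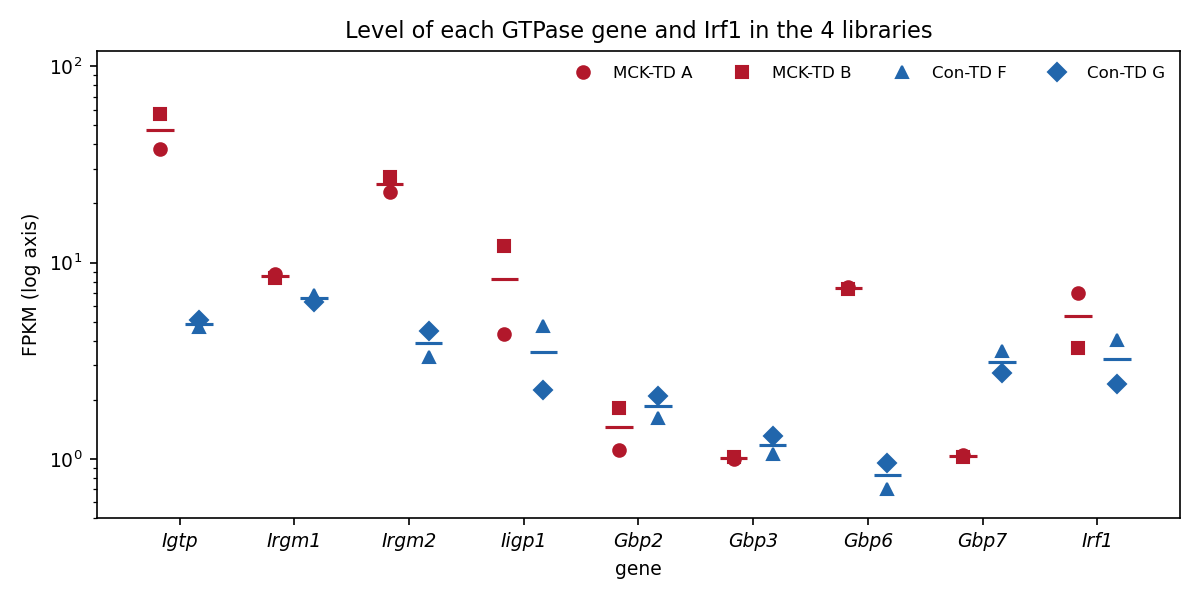
Level of each gene in FPKM on a log axis. Points are the MCK-TD libraries A and B (red) and the Con-TD libraries F and G (blue), and bars are group means. Igtp, Irgm2 and Gbp6 stand 6.46-fold to 9.70-fold higher in MCK-TD, Gbp7 is 3.04-fold lower, and the libraries of Iigp1, Irf1 and Gbp2 overlap between the groups.

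As the plot of levels by library shows, the order of the genes differed between the groups. In MCK-TD it ran Igtp, Irgm2, Irgm1, Iigp1, Gbp6, Irf1, Gbp2, Gbp7 and Gbp3. Igtp and Irgm2 stood apart from the rest in both MCK-TD libraries, whereas the ranges of Iigp1 and of Irgm1, Gbp6 and Irf1 met. In Con-TD the order ran Irgm1, Igtp, Irgm2, Iigp1, Irf1, Gbp7, Gbp2, Gbp3 and Gbp6. There Irgm1 was the highest in both libraries and Igtp exceeded Irgm2 in both, whereas the range of Iigp1 met those of Igtp, Irgm2, Irf1 and Gbp7. Gbp6 was thus the lowest of the 9 in Con-TD and the fifth in MCK-TD.

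The 9 genes together summed to 91.2 and 119.8 FPKM in the MCK-TD libraries A and B, against 30.5 and 27.6 FPKM in the Con-TD libraries F and G. Igtp and Irgm2 made up most of the MCK-TD sums. The median of their log2 differences was 0.56, against 0.22 over all 12474 rows tested. Both MCK-TD libraries were above both Con-TD libraries for 4 genes (Igtp, Irgm2, Gbp6 and Irgm1) and below for 2 (Gbp7 and Gbp3). Over all rows tested this held for 50.7% and 21.3%, 72% in either direction. In the limma fit over all rows, with a call at a Benjamini-Hochberg adjusted p under 0.05, 3 of the 9 were called higher in MCK-TD and 1 lower. Over all rows 30.8% were called, 24.3% higher and 6.45% lower in MCK-TD. Since the contrast chose these genes, the counts are given only beside that background.

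**Figure D2:**
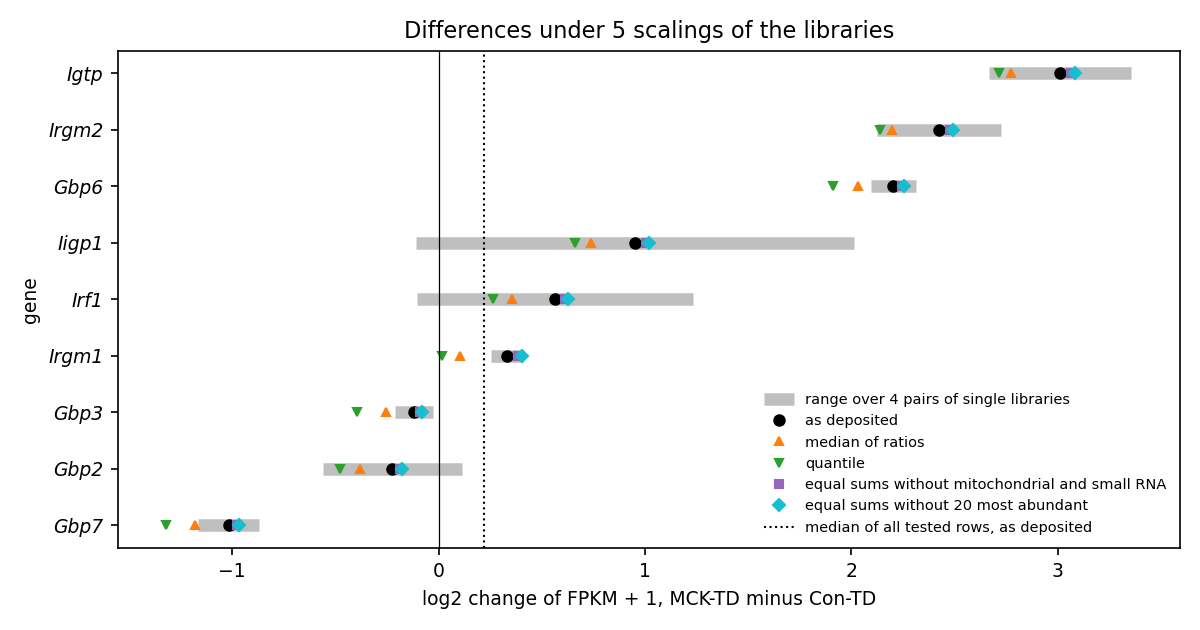
Difference in log2(FPKM + 1), MCK-TD minus Con-TD, under 5 scalings of the libraries (symbols), with the range over the 4 pairs of single libraries as deposited (grey bars). The dotted line is the median of all rows tested as deposited, 0.22. Igtp, Irgm2 and Gbp6 lie far to the right and Gbp7 to the left under each scaling, and the bars of Iigp1, Irf1 and Gbp2 cross 0.

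The plot of scalings shows that the sign of none of the 9 differences depended on the 5 scalings tried, nor on leaving out a single library. For Igtp the log2 difference ran between 2.72 and 3.08 over the scalings and between 2.72 and 3.31 over the 4 fits without 1 library. The relative depth of the libraries was read as between 0.933 and 1 of Con-TD F, from the most frequent ratio among rows of low FPKM. Only ratios near 1 were searched, so a large difference in depth could not have been found. The depth of the libraries in reads is unknown. Their FPKM sums differed by group, with 1899170 and 2068370 in MCK-TD A and B and 2725170 and 2762340 in Con-TD F and G. Mitochondrial and small RNA rows made up most of each sum. They held 1200850 and 1346580 in MCK-TD A and B and 1967370 and 2037810 in Con-TD F and G. Over the genes tested, which are no independent replicates, Pearson's r of the libraries' log2(FPKM + 1) values was 0.946 between the MCK-TD libraries. It was 0.953 between the Con-TD libraries and 0.881 to 0.904 between groups. Muscle identity was clear in all 4 libraries: Acta1, the skeletal muscle actin, had 12240 and 11779 FPKM in MCK-TD and 18474 and 17088 FPKM in Con-TD. In bulk muscle, a change in the number of cells of a type and a change in RNA per cell cannot be told apart.

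How far reads can be assigned to a single gene differed among the 9. The deposited values come from single-end reads of 50 bases, so the 50-base words of each gene's longest protein-coding transcript in GENCODE M21 were compared with those of all other genes. Of the words of Irgm1 0.995% were shared with another gene, of Gbp2 2.07%, of Irf1 2.49%, of Iigp1 3.19% and of Gbp3 4.79%. Igtp shared 12.3%, all of them with Irgm2, which shared 6.29% of its own words with Igtp. The annotated exons of Igtp and Irgm2 overlap by 162 bases on the same strand. Gbp7 shared 12.8% of its words, mostly with the pseudogene Gm43802.

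**Figure D3:**
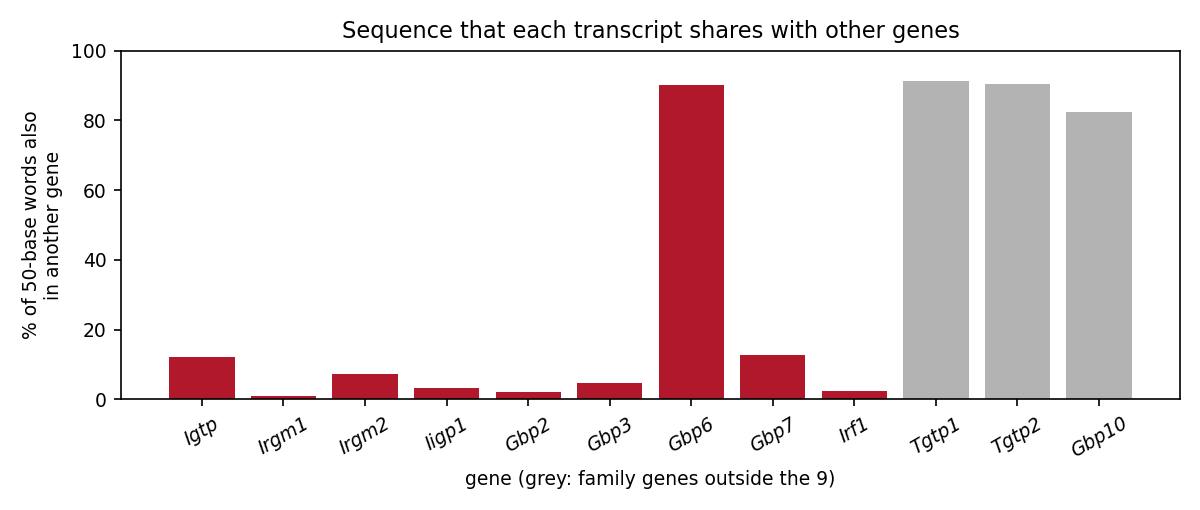
Share of the 50-base words of each gene's transcript that also occur in a transcript of another gene, in percent. Red bars are the 9 genes described here, grey bars Tgtp1, Tgtp2 and Gbp10. Gbp6 shares 90.2% of its words and the other 8 red genes 12.8% or less.

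In the plot of shared words Gbp6 stands alone among the 9 genes, with 90.2% of its words in the overlapping gene model Gm43302 and 62.3% in Gbp10. Gbp10, its neighbour, had 8.51 and 8.61 FPKM in MCK-TD and 0.608 and 0.722 FPKM in Con-TD, nearly the values of Gbp6. How the deposited values split the reads of Gbp6 and Gbp10 is not stated, so the values of both are uncertain and may not be independent. Irf1 shares 3.4% of its exonic bases with a gene on the opposite strand, Gm17334, and whether strand was used is not given in the sources used here.

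Neighbouring genes were compared by their order in the RefSeq gene table. Igtp and Irgm2 are adjacent, and the genes next to the pair, Gm12250 and 4930438A08Rik, had a mean below 1 FPKM in both groups. Gm12250, the IRG gene also called Irgb10, had 0.235 and 0.0823 FPKM in MCK-TD and 0.0389 and 0.166 FPKM in Con-TD, with overlapping groups. Of the 9 genes in this window, Igtp and Irgm2 alone had a log2 difference above 2. Around Gbp6, Gbp10 had a similar difference. Gbp4 had 0.535 and 0.578 FPKM in MCK-TD and 0.535 and 0.543 FPKM in Con-TD, and the groups differed little. Gbp8 was higher in MCK-TD, with 0.436 and 0.580 FPKM against 0.0523 and 0.124 FPKM in Con-TD. Gbp9 was lower in MCK-TD, with 0.447 and 0.568 FPKM against 0.629 and 1.03 FPKM in Con-TD. Gbp5, beside Gbp7, had 0.318 and 0.493 FPKM in MCK-TD and 0.619 and 0.932 FPKM in Con-TD. MCK-TD was the lower group there, as at Gbp7. Gbp2b, between Gbp3 and Gbp2, was higher in MCK-TD, with 0.540 and 0.730 FPKM against 0.389 and 0.0679 FPKM in Con-TD.

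**Figure D4:**
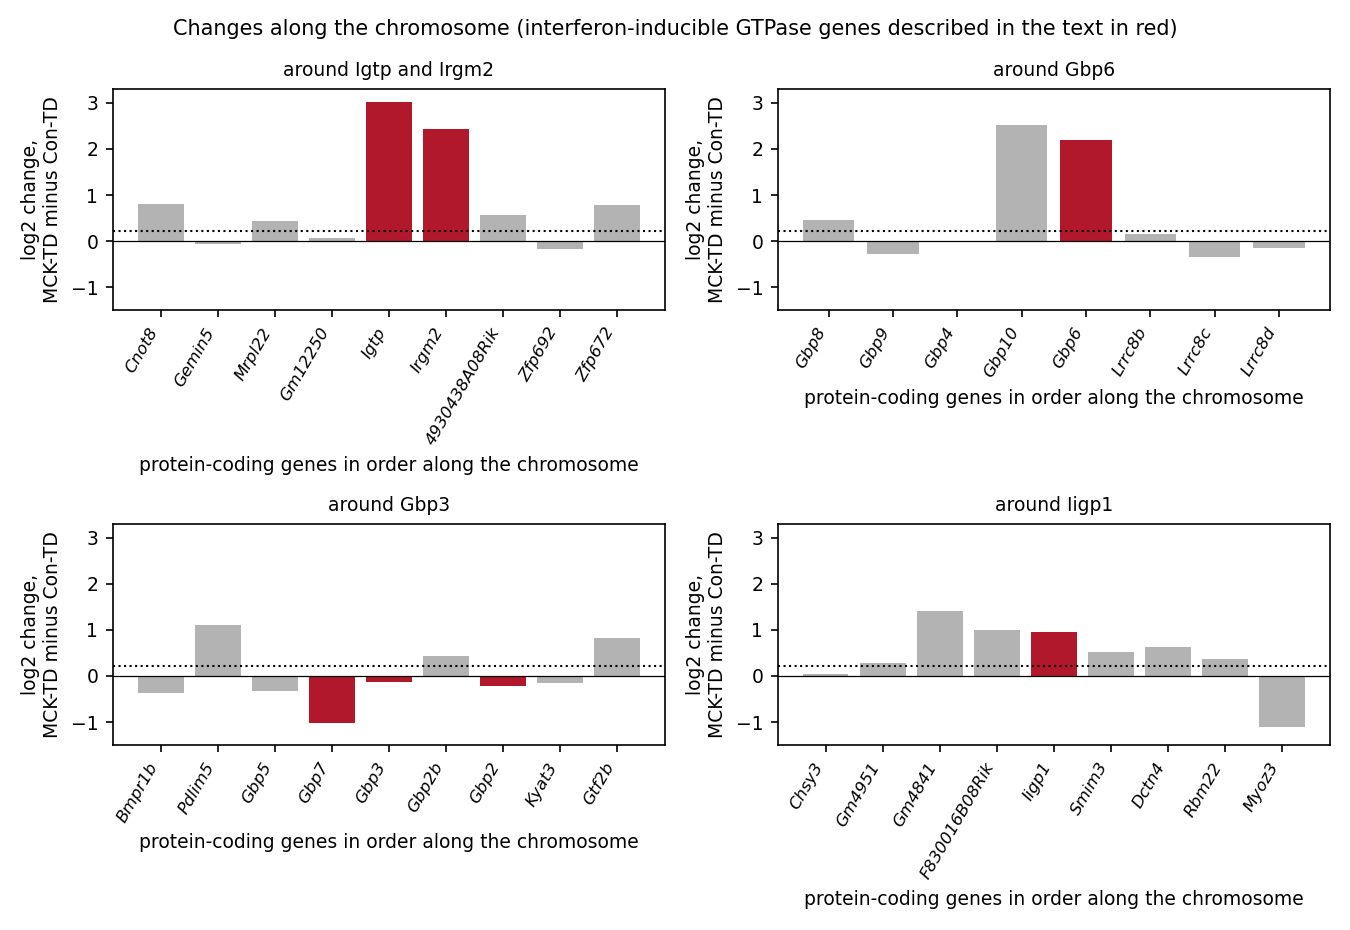
Difference in log2(FPKM + 1), MCK-TD minus Con-TD, for protein-coding genes in their order along the chromosome around Igtp and Irgm2, Gbp6, Gbp3 and Iigp1. Red bars are genes of the 9 chosen, and grey bars all others, among them further GTPase genes such as Gbp10 and Gbp4. The dotted line is the median of all rows tested, 0.22. Igtp (3.01), Irgm2 (2.42), Gbp10 (2.52) and Gbp6 (2.20) exceed the genes around them.

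The plot of neighbouring genes also shows Iigp1 near further IRG genes with positive differences. Gm4951 was low, with 0.226 and 0.411 FPKM in MCK-TD and 0.111 and 0.0668 FPKM in Con-TD. F830016B08Rik, also called Ifgga4, had 6.11 and 10.8 FPKM in MCK-TD and 4.54 and 2.77 FPKM in Con-TD, and was not called (log2 change 1.01, SE 0.33, limma adjusted p = 0.0878). Gm4841, also called Ifgga3 and named after its values were seen, had 28.7 and 78.7 FPKM in MCK-TD and 33 and 8.77 FPKM in Con-TD (limma adjusted p = 0.237). Like Iigp1, all of these were highest in MCK-TD B and lowest in Con-TD G. Irf1 had another order, with MCK-TD A highest and Con-TD G lowest. Socs3, an inhibitor of cytokine signalling named after its values were seen, had that same order, with 17.1 and 10.0 FPKM in MCK-TD and 10.05 and 4.30 FPKM in Con-TD.

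Of 20 other IRG and GBP genes that were listed, 3 had a mean of at least 1 FPKM. The list leaves out Gm4841 and Gm12250, whose values are given above. Gm4841 was above that minimum, overlapped between the groups and was not called. Gbp10 rose in MCK-TD (log2 change 2.52, SE 0.12, limma adjusted p = 0.00574), with the uncertainty given above. Like Gbp6 it reached the minimum only through MCK-TD, so that its call adds nothing to its levels. Irgq, an IRG-related protein, also rose, with 6.28 and 5.43 FPKM in MCK-TD and 2.77 and 2.48 FPKM in Con-TD (log2 change 0.92, SE 0.13, limma adjusted p = 0.0151). F830016B08Rik was the third. The other 17 were below the minimum, and 7 of them had both MCK-TD libraries above both Con-TD libraries, against 31% of all rows below the minimum with a value above 0. Tgtp1 and Tgtp2, effector IRG genes with the same joint GAS and ISRE arrangement as Igtp, were low in both groups. Tgtp1 had 0.733 and 0.600 FPKM in MCK-TD and 0.584 and 0.728 FPKM in Con-TD, and Tgtp2 0.637 and 0.712 FPKM in MCK-TD and 0.708 and 0.968 FPKM in Con-TD. The groups overlapped for both. Tgtp1 shares 89.4% of its words with Tgtp2, so the split between them is uncertain.

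The cytokines that start interferon signalling were hardly represented in these libraries. Of 18 listed ligands and inducing cytokines, 9 were listed at 0 in all 4 libraries, among them Ifnb1. Ifng, the interferon gamma gene, was listed at 0 and 0.570 FPKM in MCK-TD and at 0 in both Con-TD libraries. A listed 0 may also stand for an estimate that failed. Of the 4 with a mean of at least 1 FPKM, Il15, a cytokine of NK cells and memory T cells, fell, with 1.69 and 1.04 FPKM in MCK-TD and 4.21 and 3.99 FPKM in Con-TD (log2 change -1.12, SE 0.18, limma adjusted p = 0.0199). Il12a and Il6 were not called. Il12a, which encodes a subunit of interleukin 12, had 2.33 and 3.39 FPKM in MCK-TD and 3.51 and 2.88 FPKM in Con-TD, with overlapping groups. Il6 had 4.14 and 1.72 FPKM in MCK-TD and 1.52 and 0.456 FPKM in Con-TD (log2 change 0.97, SE 0.44, limma adjusted p = 0.164).

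The receptor and JAK-STAT genes moved in both directions. Of 14 tested, 3 rose and 2 fell (21.4% and 14.3%, against 24.3% and 6.45% of all rows). Ifngr2, the signalling subunit of the interferon gamma receptor, fell, with 22.7 and 23.6 FPKM in MCK-TD and 49.4 and 43.1 FPKM in Con-TD (log2 change -0.96, SE 0.11, limma adjusted p = 0.0120). Jak2, the kinase bound to that subunit, fell as well, with 3.32 and 4.11 FPKM in MCK-TD and 8.85 and 7.45 FPKM in Con-TD (limma adjusted p = 0.0185). Ifnar2, a subunit of the type I interferon receptor, rose, with 10.6 and 10.2 FPKM in MCK-TD and 3.78 and 2.71 FPKM in Con-TD (log2 change 1.43, SE 0.16, limma adjusted p = 0.0110). Ptpn2, a phosphatase that acts on JAK1, rose 2.72-fold in the mean (log2 change 1.32, SE 0.12, limma adjusted p = 0.00866).

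Ifngr1, the ligand-binding subunit of the interferon gamma receptor, overlapped between the groups, with a log2 change of -0.22 and an SE of 0.14 (limma adjusted p = 0.301). Stat2 was below the minimum for the test, with 0.901 and 0.834 FPKM in MCK-TD and 0.411 and 0.818 FPKM in Con-TD. Socs1, a feedback inhibitor of JAK kinases that interferon gamma induces, was also below it, with 1.03 and 1.05 FPKM in MCK-TD and 0.327 and 0.350 FPKM in Con-TD. The mean of Socs1 was 3.07-fold higher in MCK-TD, with no test at that level.

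Of 8 genes tested in the list of other IRF genes, 6 IRF genes and the genes of the IRF2-binding proteins Irf2bp1 and Irf2bp2, 1 rose (12.5%, against 24.3% of all rows). This was Irf7, which drives type I interferon genes, with 3.16 and 4.29 FPKM in MCK-TD and 0.881 and 1.65 FPKM in Con-TD (log2 change 1.07, SE 0.24, limma adjusted p = 0.0384). Irf5 and Irf3, the most abundant others, were not called. Irf5 had 26.5 and 15.6 FPKM in MCK-TD and 8.98 and 14.6 FPKM in Con-TD, with MCK-TD B only just above Con-TD G. Irf3 had 9.38 and 8.60 FPKM in MCK-TD and 7.48 and 8.26 FPKM in Con-TD, close together in both groups. The call of Irf7 did not hold with either median of ratios scaling or quantile normalization, and Irf2bp1 was called lower with the second of these.

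The type I interferon response genes, 17 of them tested, gave 4 calls, all higher in MCK-TD, 23.5% against 24.3% of all rows. These were Ifi35 (log2 change 0.83), the RNA-activated kinase gene Eif2ak2 (0.81), the DNA sensor gene Ifi204 (0.72) and Bst2, which tethers budding viruses (0.64). Eif2ak2 had 2.51 FPKM in each MCK-TD library, against 1.06 and 0.951 FPKM in Con-TD (SE of the log2 change 0.14, limma adjusted p = 0.0221). The calls of Ifi204 and Bst2 were lost with both of those scalings, and that of Eif2ak2 with quantile normalization.

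Of 8 interferon gamma response genes tested, 3 rose (37.5%, against 24.3% of all rows). Cxcl10, a chemokine for activated T cells, had 4.75 and 3.64 FPKM in MCK-TD and 0.575 and 0.000159 FPKM in Con-TD (log2 change 2.04, SE 0.29, limma adjusted p = 0.0151). No fold is given, since its level in Con-TD G was close to 0, and Cxcl10 reached the minimum for the test only through MCK-TD. The aminopeptidase gene Lap3 and the tRNA synthetase gene Wars had log2 changes of 0.66 and 0.49, and their calls were lost with both scalings. The inflammasome genes linked to GBPs gave no call among the 2 tested, Casp4 and Il1b, by limma, and none at an unadjusted p under 0.05. Casp4 had 2.88 and 1.35 FPKM in MCK-TD and 0.794 and 0.714 FPKM in Con-TD. Il1b had 2.58 and 1.13 FPKM in MCK-TD and 0.970 and 0.231 FPKM in Con-TD. Of 8 NF-kB genes tested 1 rose (12.5%, against 24.3% of all rows). This was Nfkbib, an inhibitor (log2 change 0.96, SE 0.11, limma adjusted p = 0.0119). The inhibitor gene Nfkbia overlapped between the groups, and the subunit gene Rela was not called (log2 change 0.39, SE 0.13, limma adjusted p = 0.0890).

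Antigen presentation by MHC class II showed the highest share of calls among the 11 lists, with 7 of 7 tested genes higher in MCK-TD (100%, against 24.3% of all rows). Ctss, cathepsin S, which trims the invariant chain, had 33.4 and 27.6 FPKM in MCK-TD and 1.55 and 2.51 FPKM in Con-TD (log2 change 3.39, SE 0.21, limma adjusted p = 0.00690). H2-Aa, the alpha chain of a class II molecule, had 45.3 and 53.5 FPKM in MCK-TD and 13.9 and 15.4 FPKM in Con-TD (log2 change 1.69, SE 0.13, limma adjusted p = 0.00778). H2-Ab1 and H2-Eb1 rose as well, with log2 changes of 1.62 and 1.36. Ciita, the master activator of class II genes, was low in both groups, with 0.109 and 0.138 FPKM in MCK-TD and 0.0352 and 0.127 FPKM in Con-TD, and was not tested. With median of ratios scaling or quantile normalization 6 of the 7 class II genes were called. Of the 12474 rows, 1835 and 1592 were called higher with these scalings. With no minimum level for the test 4 of 11 class II genes were called. There 1668 rows were called higher, of the 12474 and 13146 further rows above 0 in a library.

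In the MHC class I list 5 of 21 tested genes rose, 23.8%, against 24.3% of all rows, and none fell. Quantile normalization left 3 higher calls in the list and scaling by the median of ratios 2, and under both Erap1 and Psme1 were called lower. Canx, Pdia3 and Calr, which fold class I molecules but also many other glycoproteins of the endoplasmic reticulum, had log2 changes of 1.27, 1.17 and 0.66. Psme2, a proteasome activator subunit (0.65), and Psmb10, an immunoproteasome subunit (0.53), were the others. The immunoproteasome genes Psmb8 and Psmb9 overlapped between the groups, with log2 changes of -0.05 and 0.01. So did the class I genes H2-K1 (0.19) and H2-D1 (0.21). Of the 21, 9 had both MCK-TD libraries above both Con-TD libraries and 2 below, against 50.7% and 21.3% of all rows. Nlrc5, the class I activator, had 0.315 and 0.492 FPKM in MCK-TD and 0.0819 and 0.320 FPKM in Con-TD, and was not tested. Of 11 genes of the ubiquitin-like conjugation machinery that helps load IRG proteins and serves autophagy in general, 4 rose (36.4%, against 24.3% of all rows): Map1lc3a (log2 change 1.49), Gabarapl1 (1.12), Atg12 (0.89) and Atg3 (0.54). Calls of Psme2, Psmb10 and Atg3 were lost with both scalings, that of Calr with median of ratios and that of Gabarapl1 with quantile normalization.

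**Figure D5:**
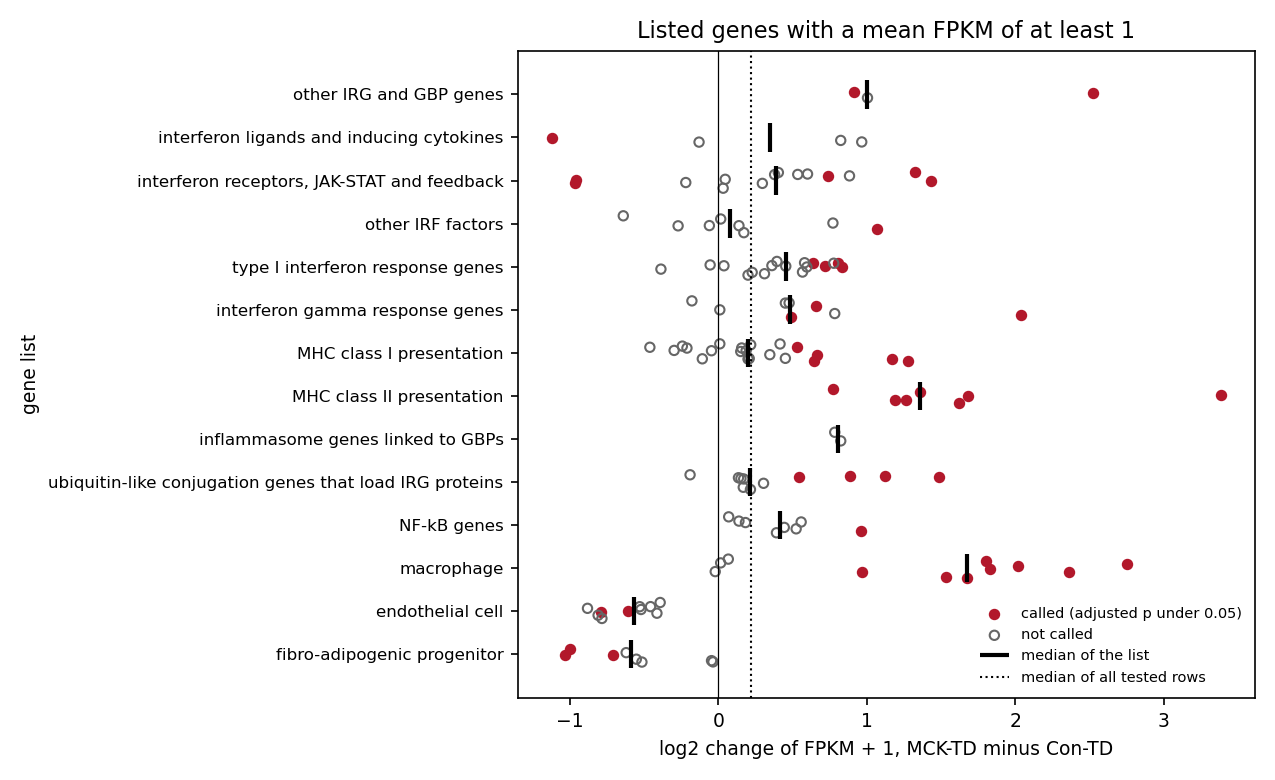
Difference in log2(FPKM + 1), MCK-TD minus Con-TD, for each gene with a mean of at least 1 FPKM in the 11 function lists and in 3 cell type lists. Filled points were called by limma (adjusted p under 0.05), black bars are list medians, and the dotted line is the median of all rows tested, 0.22. MHC class II genes (median 1.36) and macrophage markers (1.68) lie to the right, endothelial (-0.57) and fibro-adipogenic (-0.59) markers to the left.

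In the plot of lists by gene group, 30 of the 99 genes tested in the 11 lists rose in MCK-TD and 3 fell, 30.3% and 3.03%, against 24.3% and 6.45% of all rows. No call among these 99 genes held when any 1 library was left out, and most calls over all rows were lost there as well. With no minimum level for the test, 17 of the 29 called genes named from these lists were no longer called, Irgq, Il15, Jak2, Irf7, Ifi35, Eif2ak2, Ifi204, Bst2, Cxcl10, Lap3, Wars, Calr, Psme2, Psmb10, Map1lc3a, Gabarapl1 and Atg12. Without the intensity trend this held for Wars, Psme2 and Psmb10. The lists were drawn up with earlier results of these data known and are not independent evidence of a direction.

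Macrophage markers were higher in MCK-TD, as Igtp, Irgm2 and Gbp6 were. Of 11 tested, 8 rose and 0 fell (72.7% and 0%, against 24.3% and 6.45% of all rows), with a median log2 change of 1.68 and no marker lower at an unadjusted p under 0.05 by limma. Cd14 and Aif1, with Con-TD means of 0.889 and 0.630 FPKM, reached the minimum for the test only through MCK-TD. Their calls add nothing to their levels, and the median is the value of Cd14. No call among the 11 held without any 1 library, where most calls over all rows were lost as well. With no minimum level for the test 4 of 14 were called. There 1668 rows were called higher, of the 12474 and 13146 further rows above 0 in a library. The summed level of all 14 macrophage markers was 220.0 and 188 FPKM in MCK-TD, against 41.8 and 59.0 FPKM in Con-TD. Lyz2, lysozyme of myeloid cells, had 78.7 and 59.3 FPKM in MCK-TD and 10.4 and 15.1 FPKM in Con-TD. Cd163, Mrc1 and Itgam overlapped between the groups. The macrophage sum was higher in MCK-TD A than in MCK-TD B, as were Irgm1, Gbp6, Gbp7 and Irf1, whereas Igtp, Irgm2, Iigp1, Gbp2 and Gbp3 were higher in B.

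Lymphocyte markers were scarce. None of 10 T cell markers reached a mean of 1 FPKM, and their sum was 2.23 and 2.58 FPKM in MCK-TD, against 1.10 and 1.64 FPKM in Con-TD. Cd8a had 0.0301 and 0.0607 FPKM in MCK-TD and was listed at 0 in both Con-TD libraries. The 8 NK cell markers in the table summed to 0.289 and 1.01 FPKM in MCK-TD, against 0.181 and 0.310 FPKM in Con-TD, and the granzyme genes Gzma and Gzmb and the perforin gene Prf1 were each listed at 0 in at least 1 library. The 7 dendritic cell markers summed to 2.54 and 2.87 FPKM in MCK-TD, against 1.05 and 1.34 FPKM in Con-TD. The 5 B cell markers summed to 0.407 and 0.362 FPKM in MCK-TD, against 0.129 and 0.539 FPKM in Con-TD. The 6 neutrophil markers summed to 11.6 and 9.17 FPKM in MCK-TD, against 18.1 and 6.64 FPKM in Con-TD, and the sums of both lists overlapped between the groups. Of 10 endothelial markers 2 fell, of 8 fibro-adipogenic markers 3 fell, and of 10 muscle fibre markers 6 fell (20%, 37.5% and 60%, against 6.45% of all rows). The other scalings gave 1 to 4, 2 to 5 and 3 to 6. None of these calls held with no minimum level for the test or with any 1 library left out. Without 1 library, most calls over all rows were lost as well. The part of these cell types in the levels of the GTPase genes was not tested.

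The genes whose profile over the 4 libraries was most like that of Igtp, by Euclidean distance between centred log2(FPKM + 1) values, were Psat1, SNORA3, Tmc6, Net1 and Cyb5r3, at distances of 0.143 to 0.161. Psat1, an enzyme of serine synthesis, had 10.6 and 17.8 FPKM in MCK-TD and 0.950 and 1.0 FPKM in Con-TD. Cyb5r3, a cytochrome b5 reductase, had 111 and 155 FPKM in MCK-TD and 13.8 and 17.3 FPKM in Con-TD. In both genes, as in Igtp, MCK-TD B was the highest library and the Con-TD libraries lay close together. With 4 libraries in 2 groups, likeness of this kind is shared by any gene with a similar difference and a higher level in MCK-TD B.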

How the data were processed

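Muscle RNA from 4 libraries, 2 MCK-TD and 2 Con-TD, was enriched for mRNA and sequenced as single-end reads, per the labels' protocols and the series text. The authors deposited FPKM values per gene. STAR, Cufflinks and mm9 are named, without versions, in the submitters' processing notes, and the annotation is not given in the sources used here. Absolute depth is unknown, which leaves only the spread between libraries as a measure of precision, and counts could not be recovered from the deposited FPKM.

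Values were taken as log2(FPKM + 1), a scale that understates changes of low genes. Group values are means ± SD, and fold values are ratios of means. Limma 3.58.1 under R 4.3.3 fitted the group alone to the 12474 of 37305 rows whose mean FPKM reached 1, with an intensity trend, 2 residual degrees of freedom, two-sided tests and Benjamini-Hochberg adjustment, and was tested on simulated data. For a symbol on several rows the row with the higher mean was used. The alternatives were a pseudocount of 0.1, other filters and scalings, no trend, and leaving out each library.

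The genes and lists were chosen with earlier results of these data known. Named from each list were up to 4 called genes with the largest changes, then, where under 3 were called, up to 2 uncalled genes with the highest means. To these were added 8 regulators and the 5 rows most like Igtp. Genes named outside this rule, among them the neighbours, further family genes, markers, Socs3, Psmb10 and Ifnb1, were named with their values seen. 1 gene that this rule names is not reported here.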

Additional observations from a re-analysis of the deposited data

How the results depend on the processing

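No paired analysis was possible because the 4 libraries carry letters that no 2 of them share. Over all rows, 3033 calls were higher and 804 lower in MCK-TD. With no filter on low values, which added 13146 rows to the 12474, they numbered 1668 higher and 375 lower. They were 1835 and 1519 with median of ratios scaling and 1592 and 1666 with quantile normalization. The balance of directions over all rows thus depended on the scale. The median log2 change over all rows was 0.22 as deposited, 0.01 with median of ratios and -0.05 with quantile normalization. Leaving out 1 library gave 12 to 154 higher and 8 to 68 lower calls. In the 11 lists, 30 higher and 3 lower calls became 15 and 1 with no filter, 18 and 6 with quantile normalization, 20 and 5 with median of ratios, and 0 and 0 without any 1 library. Fewer libraries enter those fits.

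The median log2 difference of the 9 genes, 0.56, was 0.26 with quantile normalization and 0.28 to 0.84 without 1 library. Under each scaling and with each library left out, 6 of the 9 were higher in MCK-TD. The count of 4 of the 9 called, against 30.8% of all rows, supports nothing, since the contrast chose them. It was 3 with no filter on low values, where 1668 rows were called higher and 375 lower, of the 12474 and 13146 further rows above 0. It was 5 without the 20 most abundant rows in the scaling, where 3464 of the 12474 rows were called higher and 639 lower. Most of these calls were lost in fits without 1 library, as were most calls over all rows. The log2 difference of Gbp6 was 3.03 with a pseudocount of 0.1. Levels near 1 FPKM rest on few reads, and at unknown depth their error cannot be given.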
